A study of Ovis aries with 8 samples.

Results

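Nitric oxide synthases and the receptor for nitric oxide were examined in fetal sheep carotid arteries after long-term maternal hypoxia. All non-control probes that named NOS3, NOS2 or GUCY1B1 were taken, by gene name, by an older name, or by description where the gene name was a LOC number or an accession. This gave 6 probes of 15008 on the array, for 3 of the 695 genes with a name. NOS3, the endothelial synthase, had probe A_70_P017111, listed under its older name eNOS. NOS2, the inducible synthase, had A_70_P041326 and A_70_P041327, listed as INOS, and A_70_P056761, described as inducible nitric oxide synthase. GUCY1B1, the beta-1 subunit of soluble guanylate cyclase (older name GUCY1B3), had A_70_P026317 and A_70_P026316. Each probe had 1 spot per array.

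Carotid RNA from 4 fetuses of high-altitude ewes (hypoxia 1 to 4) was compared with RNA from 4 fetuses of sea-level control ewes (normoxia 1 to 4). The hypoxia ewes lived at 3801 m from day 30 to day 135 of gestation, 110 days by the sample titles. The normoxia ewes stayed at about 300 m on the supplier's ranch. Both groups are labelled as day 140 of gestation and carry no genetic change. Fetal sex, breed and pooling are not given in the sources used here, and transport of the hypoxia ewes cannot be told apart from altitude. Each sample was hybridised in 1 colour (Cy3) to an Agilent ovine array.

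Nitric oxide is made from L-arginine by 3 synthases, and in arteries it comes chiefly from NOS3 in the endothelium. It diffuses into smooth muscle and binds the haem of soluble guanylate cyclase, a dimer of an alpha and a beta subunit. The cyclic GMP formed there activates protein kinase G, which lowers calcium and relaxes the vessel. NOS2 is known for its induction by cytokines, while NOS3 is held to be controlled largely by calcium-calmodulin, caveolin and phosphorylation.

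A level below is the log2 processed signal of a probe minus the log2 of the 75th percentile of all non-control spots on that array. A difference is the mean level in hypoxia minus that in normoxia. The 75th percentile signal was 96.8 to 1228 fluorescence units on hypoxia arrays and 124 to 1366 units on normoxia arrays. The share of probes well above background, by the scanner's own flag, was 62.9% to 94.8% on hypoxia arrays and 59.6% to 88.4% on normoxia arrays. Across all tested probes the arrays fell apart by number and not by group: replicates 2 and 4 of hypoxia and normoxia had scores above 0 on principal component 1 (69.7% of the variance), and replicates 1 and 3 had scores below 0. Slide 1 held hypoxia 1, 2 and 3 with normoxia 1, slide 2 held hypoxia 4 with normoxia 2, and slide 3 held normoxia 3 and 4.

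Among the tissue markers, the smooth muscle genes CNN1, MYLK and MYL6 were well above background on all 8 arrays. Of 18 listed endothelial markers, 7 had a named probe and 6 were tested. Between 3 and 6 of those 6 were well above background per array in each group.

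None of the member probes passed the test between hypoxia and normoxia. Of the 11211 probes well above background on at least 4 arrays, 0 passed an adjusted p of 0.05 in limma (0%), with a smallest adjusted p of 0.998. Of the 6 member probes, 5 were tested and 0 passed. At an unadjusted p under 0.05, 412 probes were called (3.67%), and 0 of the 5 member probes. The 2 groups overlapped in each of the 6 member probes, whereas 2.66% of all tested probes showed no overlap.

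NOS3 was measured well above background on all 8 arrays. Its levels were -0.10, 0.56, -0.14 and -1.76 on hypoxia arrays 1 to 4, against -0.69, -1.54, -1.22 and -2.51 on normoxia arrays 1 to 4. Hypoxia 1, 2 and 3 lay above all 4 normoxia arrays, while hypoxia 4 lay below 3 of them. The processed signals behind these levels were 90.4, 505, 1114 and 256 units in hypoxia, against 77.2, 206, 587 and 70.1 units in normoxia. The scanner's error was 10.01% to 12.98% of the signal, and the level ranged 8.36-fold over the arrays.

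The mean NOS3 level was -0.36 ± 0.99 in hypoxia and -1.49 ± 0.76 in normoxia (SD, n = 4 each). The difference was 1.13 (SE 0.58), or 2.19-fold with a 95% interval of 0.869 to 5.49. It did not pass the test (limma, p = 0.0863, adjusted p = 0.998; exact two-sided permutation p = 0.114). The permutation test ran over all 70 assignments of the arrays to 2 groups, and 0.0286 is the smallest p that it allows.

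Same-numbered arrays deviated from their group means together, with correlations of 0.43 to 0.82, so NOS3 was also compared number by number. Such likeness was not limited to same numbers. Hypoxia 4 had a correlation of 0.80 with normoxia 2 and of 0.43 with normoxia 4. Hypoxia 3 had 0.58 with both normoxia 1 and normoxia 3. The pairing by number is therefore an assumption of the comparisons below. Hypoxia exceeded normoxia by 0.59, 2.10, 1.08 and 0.75 for numbers 1 to 4. It was higher in 4 of 4 numbers, which held for 2 of the 5 tested member probes and for 14% of all tested probes. With the replicate number as a block, the NOS3 difference had an adjusted p of 0.335 in limma. In that fit 2 of the 5 tested member probes, NOS3 and GUCY1B1 A_70_P026316, had an unadjusted p under 0.05, as had 1337 of all tested probes (11.9%), and no probe passed the adjusted test.

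The NOS3 value differed between slides. Hypoxia arrays on slide 1 differed from normoxia 1 by 0.79, hypoxia 4 differed from normoxia 2 on slide 2 by -0.22, and a fit with slide as a block gave 0.39. Slide 3 held no hypoxia array, so normoxia 3 and 4 added nothing to these values, which rest on fewer arrays. The difference was 1.59 without hypoxia 4 and 0.79 without normoxia 4, and neither passed the adjusted test. The part of the slide in the NOS3 values was not tested.

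**Figure D1:**
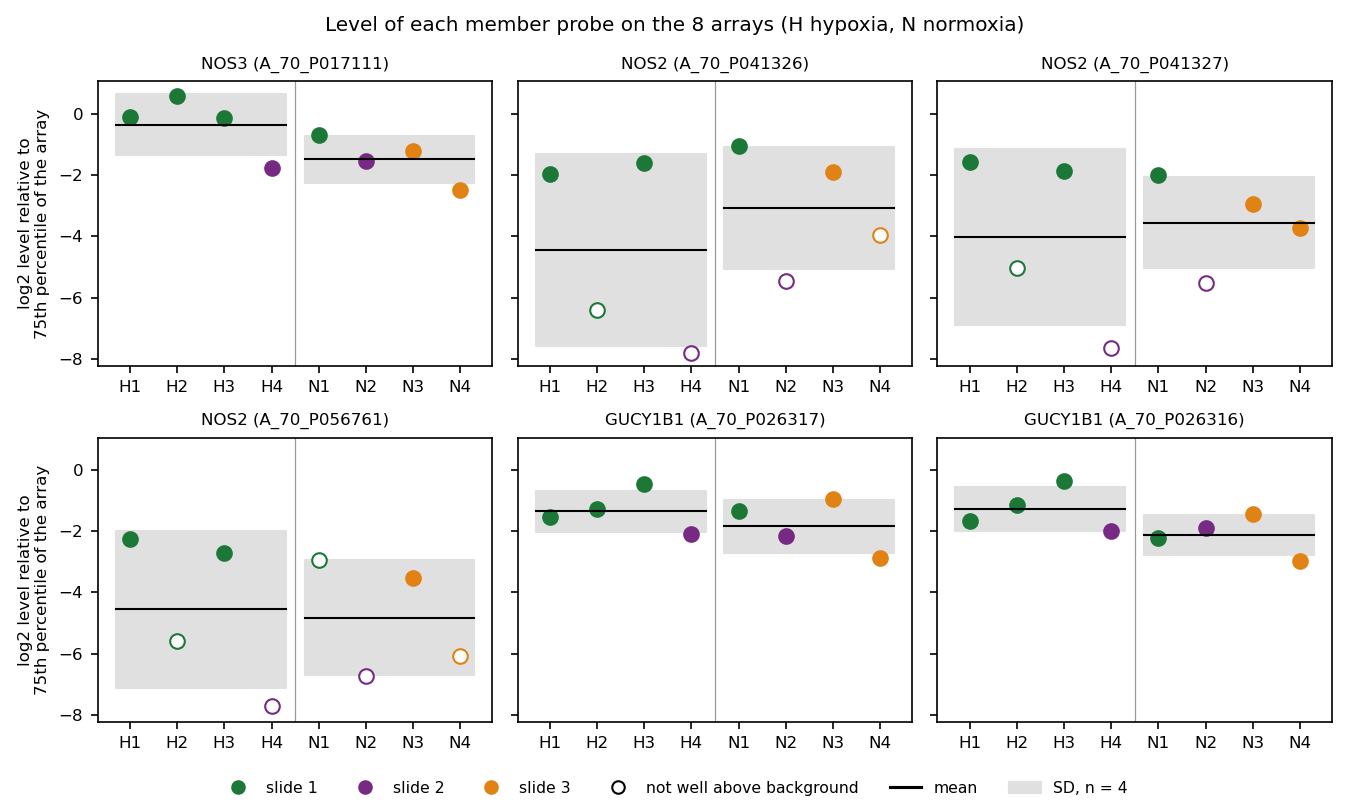
Level of the 6 probes (y axis, log2 relative to the 75th percentile of the array) on hypoxia arrays H1 to H4 and normoxia arrays N1 to N4, coloured by slide; lines are means, grey bands are SD (n = 4), and open points were not well above background. NOS3 and both GUCY1B1 probes have filled points on all 8 arrays, while the 3 NOS2 probes fall to open points at replicates 2 and 4, except A_70_P041327 on normoxia 4, and A_70_P056761 is also open on normoxia 1.

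Endothelial markers did not part the groups. Their summed level on a linear scale, relative to the 75th percentile, ranged from 0.354 to 1.91 in hypoxia and from 0.412 to 1.74 in normoxia. The sum was higher in hypoxia for 3 of 4 replicate numbers. Hypoxia 4, the hypoxia array with the lowest NOS3 level, also had the lowest endothelial sum of the 8. Of the 6 endothelial markers tested, 4 had a difference above 0 and none passed. That count was 6 without hypoxia 4, 5 without normoxia 1, 2 when slide was a block and 3 under median scaling. The differences ran from -0.91 for the VEGF receptor FLT1 to 2.15 for the receptor kinase TIE1, which was at -1.60 within slide 2. This TIE1 probe was well above background on 3 hypoxia arrays and 1 normoxia array, so it passed the filter mainly through hypoxia. The FLT1 probe was well above background on 2 hypoxia arrays and 3 normoxia arrays. The sizes of both differences were therefore not measured. In whole arteries, a difference in the number of endothelial cells and one in NOS3 RNA per cell cannot be told apart, and the markers' part in the NOS3 values was not tested.

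NOS2 gave 3 probes with the same division among the arrays and no shared direction between the groups. On A_70_P041326 the levels were -1.97, -6.42, -1.61 and -7.80 in hypoxia, against -1.05, -5.45, -1.90 and -3.96 in normoxia. Replicates 1 and 3 of both groups were high and replicates 2 and 4 of both were low, with no overlap between the 2 sets. The probe was well above background on 2 hypoxia arrays and 2 normoxia arrays, in each case replicates 1 and 3.

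The lowest NOS2 values lay near the floor of the scanner. The processed signals of A_70_P041326 were 24.8, 4.00, 403 and 3.88 units in hypoxia, against 59.9, 13.7, 366 and 25.6 units in normoxia. The 77 negative control spots had median signals of 3.40 to 5.11 units on hypoxia arrays and 3.77 to 7.35 units on normoxia arrays. Hypoxia 2 and hypoxia 4 were therefore at about the level of the negative controls, and their scanner errors were 90.2% and 98.3% of the signal. Normoxia 2 and normoxia 4 lay above their control medians of 5.63 and 5.91 units but were not well above background. A level below background gives only an upper bound, so the 107-fold range of this probe over the arrays has no measured lower end.

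**Figure D2:**
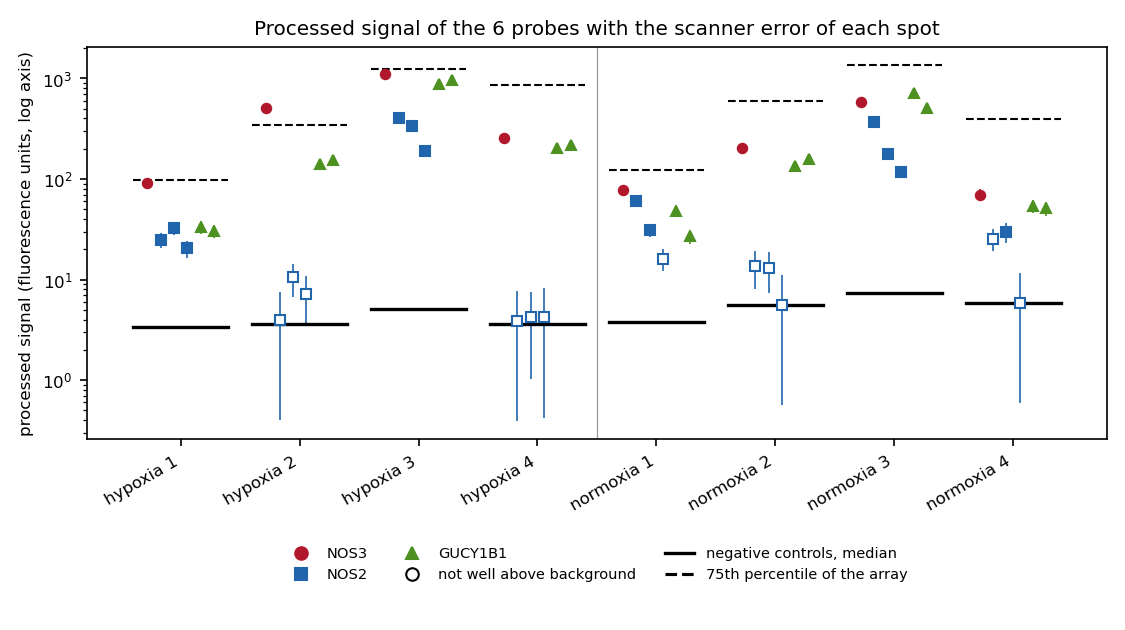
Processed signal in fluorescence units (log axis) of the 6 probes on each array, hypoxia at left and normoxia at right, with the scanner error of each spot (lower arms are shortened where they would reach 0); thick lines are the median of the negative controls and dashed lines the 75th percentile. NOS2 points of hypoxia 4 sit at 3.88 to 4.29 units beside a negative control median of 3.61 units, while NOS3 and GUCY1B1 stay well above the controls on every array.

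The mean level of A_70_P041326 was -4.45 ± 3.13 in hypoxia and -3.09 ± 1.99 in normoxia (SD, n = 4 each). The difference of -1.36 (SE 1.62) did not pass the test (limma, p = 0.427, adjusted p = 0.998; exact permutation p = 0.457). The spread within each group exceeded the difference. It was -2.28 within slide 1, -2.35 within slide 2 and -0.24 without hypoxia 4. All of these values include levels not well above background, on both arrays in the case of slide 2, so their sizes were not measured.

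The neighbouring probe A_70_P041327 had levels of -1.58, -5.03, -1.88 and -7.66 in hypoxia, against -1.997, -5.52, -2.96 and -3.74 in normoxia. It was well above background on 2 hypoxia arrays and on 3 normoxia arrays. Hypoxia was higher for numbers 1, 2 and 3, by 0.41, 0.49 and 1.08, and lower for number 4, where the value was -3.92. The mean difference was -0.48 (SE 1.42; limma, p = 0.743, adjusted p = 0.998; exact permutation p = 0.857). Its sign turned to 0.72 without hypoxia 4 and to 0.04 without normoxia 1.

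The last NOS2 probe, A_70_P056761, was well above background on 2 hypoxia arrays and 1 normoxia array and was not tested. Its levels were -2.25, -5.57, -2.70 and -7.69 in hypoxia, against -2.94, -6.73, -3.53 and -6.07 in normoxia. On 3 of the 8 arrays the scanner had replaced its signal by a surrogate value. The difference of its means was 0.27, opposite in sign to those of the other NOS2 probes. Across the 8 arrays the 3 NOS2 probes followed each other with Pearson's r of 0.916 to 0.959, a description only, since the arrays share the division into replicates 1 and 3 and replicates 2 and 4.

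GUCY1B1, the subunit that carries the haem to which nitric oxide binds, was well above background on all 8 arrays with both probes. Levels of A_70_P026317 were -1.54, -1.29, -0.47 and -2.09 in hypoxia, against -1.36, -2.16, -0.94 and -2.89 in normoxia. Levels of A_70_P026316 were -1.66, -1.14, -0.35 and -1.98 in hypoxia, against -2.21, -1.91, -1.43 and -2.96 in normoxia. In both probes hypoxia 3 was the highest of the 8 arrays and normoxia 4 the lowest, and the groups overlapped.

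The mean of A_70_P026317 was -1.35 ± 0.67 in hypoxia and -1.84 ± 0.87 in normoxia, a difference of 0.49 (SE 0.52) or 1.40-fold (95% interval 0.614 to 3.20). The mean of A_70_P026316 was -1.28 ± 0.71 in hypoxia and -2.13 ± 0.64 in normoxia (SD, n = 4 each), a difference of 0.84 (SE 0.46) or 1.79-fold (0.858 to 3.75). Neither passed the test. For A_70_P026317 limma gave p = 0.373 and adjusted p = 0.998, with an exact permutation p of 0.400. For A_70_P026316 it gave p = 0.105 and adjusted p = 0.998, with an exact permutation p of 0.171.

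By replicate number, hypoxia was higher in 3 of 4 for A_70_P026317, where number 1 gave -0.18, and in 4 of 4 for A_70_P026316, from 0.55 to 1.08. With the number as a block, limma gave an adjusted p of 0.320 for A_70_P026316 and of 0.486 for A_70_P026317. Both probes report the same gene, so they are not independent of each other. Within slide 1 the differences were 0.26 for A_70_P026317 and 1.16 for A_70_P026316, and within slide 2 they were 0.07 and -0.07. Without normoxia 4 the difference of A_70_P026317 was 0.14, and without normoxia 3 it was 0.79.

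The smooth muscle in which the cyclase acts was judged by CNN1 (calponin), MYLK (myosin light chain kinase) and MYL6 (a myosin light chain). These were the 3 tested of 14 listed markers. All 3 had a difference below 0, at -0.62, -0.59 and -0.37, and none passed the test. Without hypoxia 1, CNN1 was at 0.15, MYLK at -0.09 and MYL6 at -0.10. With slide as a block, MYLK was at 0.11. Within slide 2, CNN1 was at 0.30 and MYLK at 0.87. Their summed linear level ranged from 203 to 878 in hypoxia and from 421 to 1175 in normoxia. Their part in the GUCY1B1 values was not tested.

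**Figure D3:**
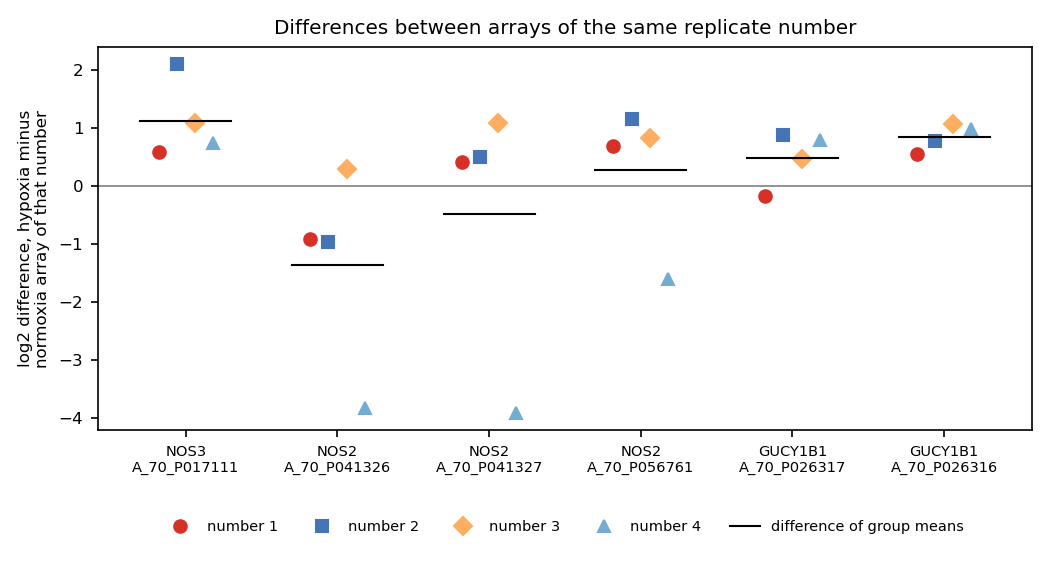
Level in the hypoxia array minus that in the normoxia array of the same replicate number (y axis, log2) for each of the 6 probes, with a line at the difference of the group means. NOS3 and GUCY1B1 A_70_P026316 lie above 0 for all 4 numbers, and the 3 NOS2 probes have their lowest value at number 4, down to -3.92.

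Likeness over the 8 arrays was described for 1 probe of each member, as Pearson's r with the other named genes. The genes most like NOS3 were CLDN4, a tight junction claudin (r = 0.950), the endothelial receptor kinase TIE1 (r = 0.930) and the glial filament gene GFAP (r = 0.912). Of these, the TIE1 probe was well above background on 4 arrays (3 hypoxia, 1 normoxia), the GFAP probe on 5 and the CLDN4 probe on 7. This TIE1 probe, A_70_P002716, is not the one given among the endothelial markers, A_70_P002717. The genes most like NOS2 were ACE, which encodes angiotensin-converting enzyme (r = 0.994), MYOG (r = 0.991) and CYP11B1 (r = 0.991), each well above background on 4 arrays. Those most like GUCY1B1 were LMNB1 (r = 0.974), IL13RA1 (r = 0.951) and SMAD4 (r = 0.923), of which IL13RA1 was well above background on 5 arrays. Among the members, NOS3 followed GUCY1B1 with r of 0.747 and 0.743 for its 2 probes, and NOS3 followed the NOS2 probe A_70_P041326 with r of 0.224. All of these values share the same 8 arrays, the same scaling and the principal component described above.

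Around the members, 115 genes of nitric oxide and cyclic GMP signalling were listed, of which 31 had a named probe and 26 were tested. Of those 26, 13 had a difference above 0 and 13 below 0, and 0 passed the test in either direction. The median difference was 0.01, beside -0.02 over all 11211 probes, of which 48.7% lay above 0. The split depended on the arrays and settings: it was 18 above and 8 below without hypoxia 4, 16 and 10 without normoxia 1 or hypoxia 2, 10 and 16 with slide as a block, and 9 and 17 with array weights. Among the 13 genes above background on all 8 arrays, 10 lay above 0, with a median of 0.32. Over the 7442 probes that met this filter the median was -0.03. At an unadjusted p under 0.05 there were 2 of the 26, PRMT1 and RAC1, beside 3.67% of all tested probes. Under median scaling limma gave an unadjusted p of 0.443 for PRMT1 and 0.225 for RAC1. By the brightest tested probe of each gene, the groups overlapped in all 26.

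Regulators of the synthases came first in the pathway. HSP90AA1, a chaperone that promotes NOS3 activity, had a level of 2.35 ± 0.52 in hypoxia and 1.605 ± 0.53 in normoxia, with a difference of 0.74 (SE 0.38; limma, adjusted p = 0.998). That difference was 0.16 with array weights and 1.41 within slide 1. CAV1, the caveolin that holds NOS3 inactive, had a difference of 0.21 (SE 0.63). CALM2, a calmodulin gene, had 0.06 (SE 0.41), and NOS1, the neuronal synthase, had -0.41 (SE 0.64). CALM2 turned to -0.12 when arrays were scaled to their median. NOS1 was above background on all 8 arrays, and its level overlapped between groups. None of these 4 genes passed the test.

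Of the cofactor and arginine genes, 2 of 16 were tested. PRMT1, which methylates arginines and so gives rise on protein breakdown to an inhibitor of the synthases, had levels of 1.67 ± 0.32 in hypoxia and 0.99 ± 0.37 in normoxia. Its difference of 0.68 (SE 0.29) was above 0 for 4 of 4 replicate numbers and did not pass the test (limma, p = 0.0486, adjusted p = 0.998; exact permutation p = 0.0571). It was 1.11 within slide 1 and 0.63 within slide 2. Of 14 listed genes for guanylate cyclases, natriuretic peptides and their receptors, 2 were tested, GUCA2B and NPPC. Neither encodes a cyclase or a receptor, so no direction was measured for those. GUCA2B was at -0.64, with an SE of 1.46, and NPPC at -0.86, with an SE of 1.84. Neither passed the test. Signals flagged as clear of background came from 4 arrays for GUCA2B and 6 for NPPC.

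Downstream of cyclic GMP, 3 of 17 effectors were tested. PRKG1, protein kinase G itself, had a difference of 0.66 (SE 0.67) by its brightest probe, and its other 2 probes gave -0.09 and -0.53. The brightest probe gave 0.019 under normexp, 0.11 under quantile normalization, 1.49 with array weights, 0.21 without normoxia 2 and -0.53 within slide 1. RGS2, a kinase G substrate that damps signalling by Gq-coupled receptors, had 0.38 (SE 0.82). PPP1R12A, the myosin phosphatase subunit through which smooth muscle relaxes, had -0.29 (SE 0.58), and 1.07 within slide 2. None passed the test, and RGS2 turned to -0.34 with array weights. Of 14 listed phosphodiesterases, which degrade cyclic nucleotides, 0 were found by name.

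Superoxide removes nitric oxide, so oxidant and antioxidant genes were listed as well, and 5 of 17 were tested. RAC1, a small GTPase that activates NADPH oxidase, had levels of 2.17 ± 0.31 in hypoxia and 1.18 ± 0.63 in normoxia. Its difference of 0.99 (SE 0.36) was above 0 in 4 of 4 replicate numbers and did not pass the test (limma, p = 0.0257, adjusted p = 0.998; exact permutation p = 0.0571). Within slide 1 it was 1.79 and within slide 2 it was 0.58. A second RAC1 probe, A_70_P059126, had a difference of 0.98 (SE 0.32, limma adjusted p = 0.998). Its groups did not overlap, which held for 2.66% of all tested probes, while those of the brightest RAC1 probe did. SOD2, the mitochondrial superoxide dismutase, had 0.30 (SE 0.38), and TXN, thioredoxin, had -0.36 (SE 0.25).

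Among 10 tested upstream receptors and signals, 4 had a difference above 0 and 6 below. KDR, the main VEGF receptor that activates NOS3, had 0.81 (SE 0.60) and was higher for 4 of 4 replicate numbers. It was 0.36 without normoxia 4 and 0.16 under normexp, and the other 3 tested KDR probes gave 1.32, 0.35 and -0.59. The insulin receptor gene INSR had -0.58 (SE 0.38), and its second tested probe gave 0.15. For NOS2, an inducing cytokine gene, IL1B, had -0.49 (SE 0.78) and the interferon-responsive transcription factor IRF1 had 0.32 (SE 0.68). The cytokine genes IFNG and TNF, in the same list, had 0.37 (SE 1.10) and -0.25 (SE 0.58). TLR4 had 0.27 (SE 0.47), and its other tested probe gave -0.39. IRF1 turned to -0.33 with slide as a block and was below 0 within both slides. None of the 10 passed the test.

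Activated macrophages are known as a source of NOS2 in rodents. By the brightest tested probe of each gene, all 7 tested leukocyte and macrophage markers had a difference below 0, and none passed the test. The count below 0 was 6 of 7 under normexp, quantile normalization, cyclic loess and the authors' series table. It was 4 of 7 without hypoxia 4 or without normoxia 1. Second tested probes gave 0.53 for LYZ and 0.09 for CD14, against -0.88 for ITGB2, -0.35 for FCER1G and -0.12 for TYROBP. The median difference of the 7 was -0.69, but -0.10 without hypoxia 4 and -0.05 without normoxia 1. Their summed linear level ranged from 1.21 to 3.53 in hypoxia and from 2.19 to 4.12 in normoxia, and it was lower in hypoxia for 4 of 4 replicate numbers. Of the 7 markers, the groups did not overlap in 1, beside 2.66% of all tested probes. That marker was FCER1G, an Fc receptor subunit, named after its values were seen (-0.72, SE 0.27, limma adjusted p = 0.998). In its second tested probe, A_70_P002707, the groups overlapped. The part of these markers in the NOS2 values was not tested.

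**Figure D4:**
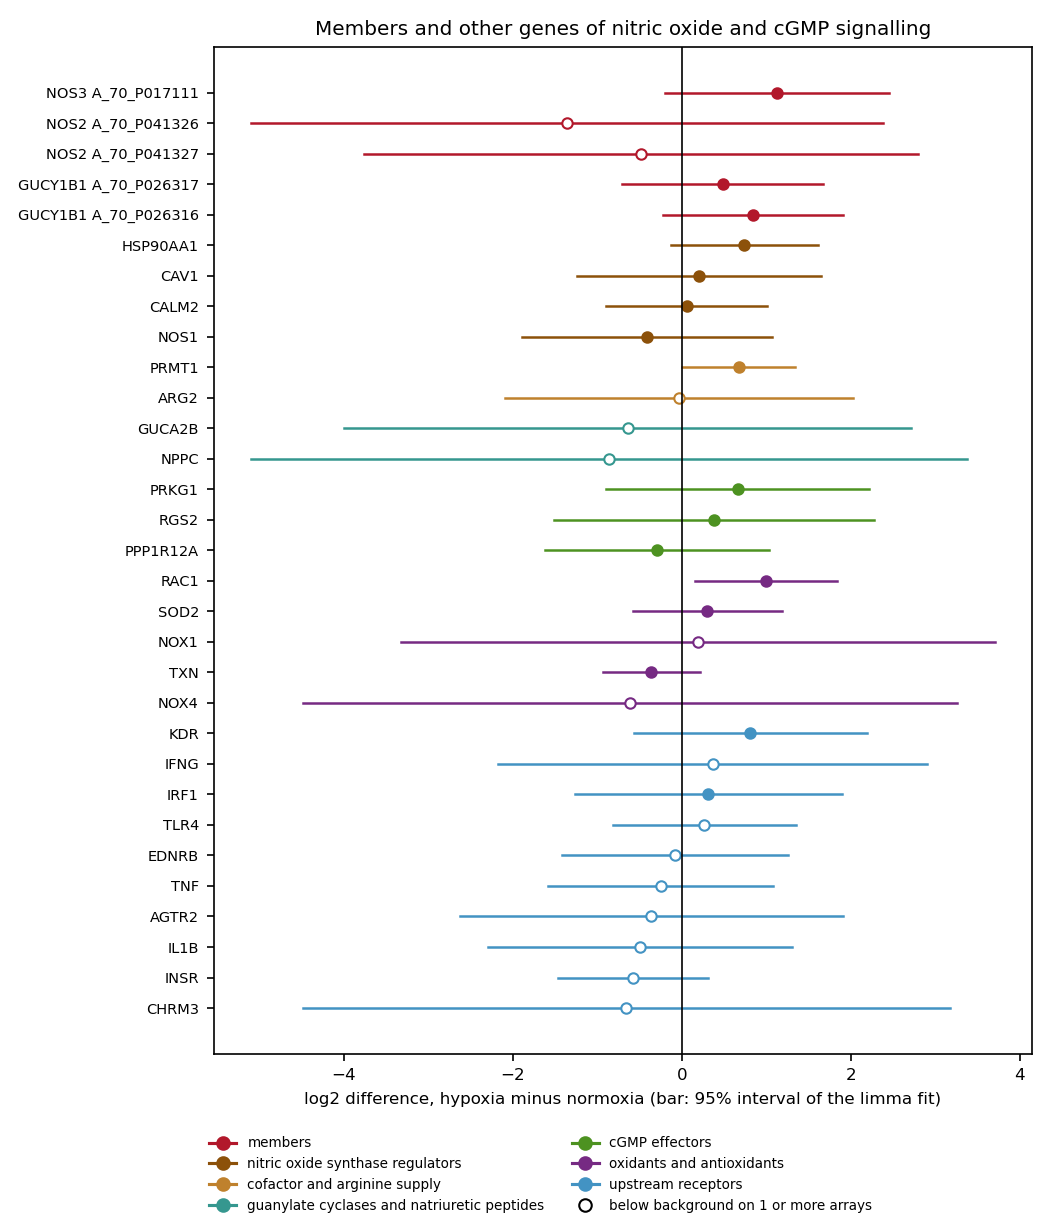
Difference in level, hypoxia minus normoxia (x axis, log2), with its 95% interval from limma, for the 5 tested member probes and 26 tested genes of nitric oxide and cyclic GMP signalling, coloured by role; open points were below background on 1 or more arrays. All intervals of the members include 0, and those of NOS2 are the widest of the members.

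Other scalings and fits left each member without a passing adjusted p. Over all alternatives with a test, the NOS3 difference ran from 0.39 to 1.71, that of GUCY1B1 A_70_P026317 from 0.14 to 0.79 and that of A_70_P026316 from 0.47 to 1.08. The difference of NOS2 A_70_P041326 ran from -2.31 to -0.24. The lowest adjusted p over these alternatives was 0.335 for NOS3, 0.474 for this NOS2 probe, 0.481 for A_70_P026317 and 0.320 for A_70_P026316.

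**Figure D5:**
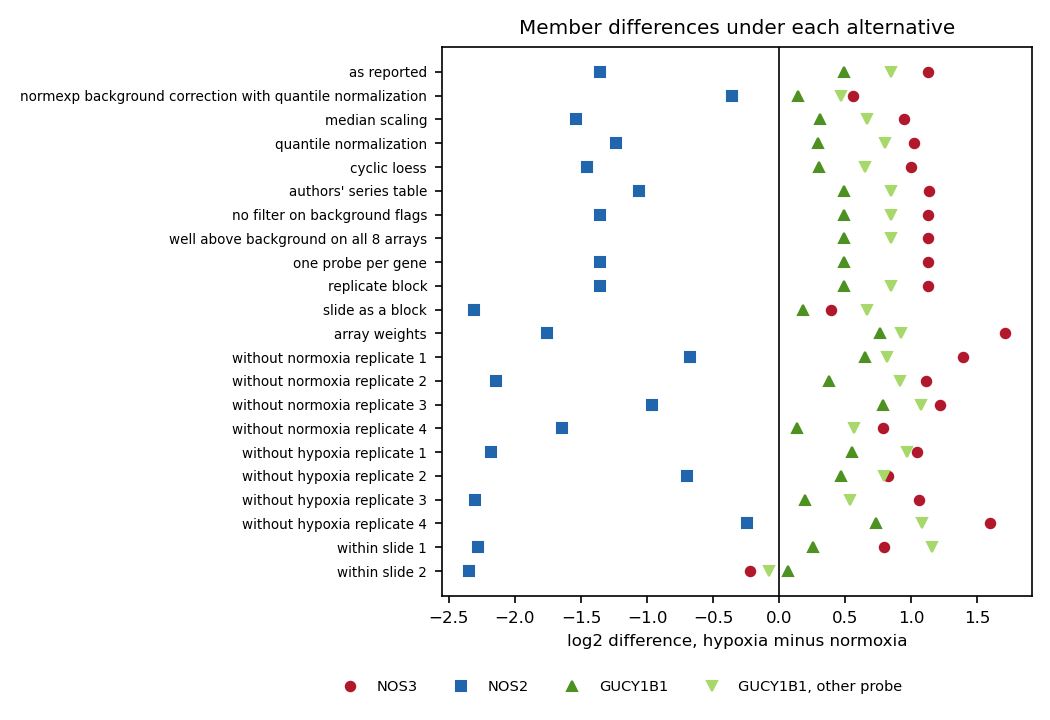
Difference in level, hypoxia minus normoxia (x axis, log2), of NOS3, NOS2 A_70_P041326, GUCY1B1 A_70_P026317 and its other probe A_70_P026316 under each setting (y axis). NOS3 stays above 0 in all settings but slide 2 alone, where it is -0.22, and the NOS2 probe stays below 0 in all settings in which it has a value.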

How the data were processed

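The members and gene lists were chosen with earlier results of these data known. Single-colour scanner files held fluorescence intensity per spot (mean and local background signal) and a processed signal, with background subtracted by Agilent Feature Extraction, per the file headers (version 9.5.3.1). A deposited series table held each signal as a ratio to the array's 75th percentile, with a floor at 0.01; its scale was found by comparison with the scanner values, and it served as an alternative. Levels were log2 processed signal minus log2 of the 75th percentile. Control spots and outlier spots were left out. Genes were named through gene name, RefSeq accession (543 of 563 probes matched), LOC number or description. Genome positions and probe sequences were not used here. limma 3.58.1 in R 4.3.3 (lmFit, eBayes, Benjamini-Hochberg) tested the 11211 probes well above background on at least 4 of 8 arrays. Each probe was its own feature. The fit was checked on simulated data with independent noise for each probe and array. That check does not cover the correlation between arrays seen here. The titles name each sample as a fetus and say nothing of how fetuses were drawn, so p-values measure only the spread between these samples.

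Pairing was checked on deviations from the group means. Same-numbered arrays had correlations of 0.82, 0.73, 0.58 and 0.43 for numbers 1 to 4. Each was above 0.1, so the numbers were taken to pair arrays in the replicate block and the comparisons by number. The main fit and the permutation test did not use the numbers. That bar did not single out same numbers, since normoxia 2 and hypoxia 4, on 1 slide, had 0.80. Hypoxia 3 with normoxia 1 had 0.58, hypoxia 2 with normoxia 4 had 0.27 and hypoxia 1 with normoxia 3 had 0.15. The other pairs of different numbers had correlations below 0. Named pathway genes are a selection of those with a measured probe, by the probe with the highest mean among those tested; likeness used the 3 named genes with the highest correlation. Alternatives were the background correction, scaling, filter, probe choice, replicate block, slide, array weights and leaving out each array.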

Additional observations from a re-analysis of the deposited data

Results flagged for a closer look

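Among 52 groups of 4 arrays examined for the member probes and the named genes, 4 held an array far from the other 3 of its group by Dixon's test, and chance gives about 1 in 20. None was a member probe. TIE1 (A_70_P002717), an endothelial marker, was at -6.16 on hypoxia 4, whose nearest neighbour in hypoxia was at -1.69. That probe was well above background on 3 hypoxia arrays and 1 normoxia array. HSP90AA1 was at 1.58 on hypoxia 2, with the nearest hypoxia array at 2.53. MYLK was at 7.51 on normoxia 4, with the nearest normoxia array at 5.57. SOD2 was at -1.38 on normoxia 1, with the nearest normoxia array at -0.13.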

How the results depend on the processing

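No probe passed an adjusted p of 0.05 in limma under any alternative run, and the smallest adjusted p, 0.150, came with array weights. The count at an unadjusted p under 0.05 was 412 (335 higher in hypoxia, 77 lower), against 135 with median scaling, 324 without the background filter, 196 with slide as a block, 1337 with the replicate block, 1370 with array weights and 176 to 620 when single arrays were left out. The split was 325 higher and 175 lower under normexp with quantile normalization, and 350 and 152 with cyclic loess. Median scaling moved the median difference of all probes from -0.02 to -0.20. With the replicate block, the NOS3 difference was 1.13, as the balanced pairs fix, and no adjusted call changed, while NOS3 and GUCY1B1 A_70_P026316 went under an unadjusted p of 0.05. Within slide 2, NOS3 was -0.22; the cause was not tested. NOS2 had no value where all 8 arrays had to be above background. In fits with a test, other signs turned as follows, all without a passing adjusted p and with the cause not tested: with median scaling, CALM2 to -0.12; with array weights, CALM2 to -0.27, RGS2 to -0.34 and SOD2 to -0.050; under normexp, INSR to 0.010; with slide as a block, IRF1 to -0.33 and MYLK to 0.11. Within slides, where no test was run, signs also turned for GUCY1B1 A_70_P026316 (-0.07), CAV1 (-0.15), CALM2 (-0.15), PPP1R12A (1.07), TIE1 (-1.60), CNN1 (0.30), MYLK (0.87) and IRF1 (-0.38) in slide 2, and for PRKG1 (-0.53), IRF1 (-0.29) and MYL6 (0.045) in slide 1. Leaving out single arrays gave -1.30 to 0.72 for NOS2 A_70_P041327, -0.24 to 0.29 for CALM2, -0.21 to 0.83 for RGS2, -0.29 to 0.58 for CAV1, -0.60 to 0.057 for PPP1R12A, -0.039 to 0.45 for SOD2, -1.89 to 0.13 for FLT1, -0.13 to 0.75 for IRF1, -1.03 to 0.15 for CNN1 and -0.99 to 0.024 for IL1B. The same range was 0.79 to 1.59 for NOS3, -2.31 to -0.24 for NOS2 A_70_P041326, 0.14 to 0.79 for GUCY1B1 A_70_P026317 and 0.53 to 1.08 for A_70_P026316. NOS2 rests on few arrays above background, and 4 arrays per group limit the precision of every value.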
